A study of Homo sapiens with 12 samples.

Results

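Chemokines are small secreted proteins that draw leukocytes along a gradient by binding G-protein-coupled receptors. The 10 described here are CXCL1, CXCL2, CXCL3, CXCL5, CXCL6, CXCL8, CXCL16, CCL2, CCL5 and CCL20, chosen by name as chemokines that attract neutrophils, monocytes or other leukocytes and are known from the secretome of senescent cells. They were chosen with earlier results of these data known. Each had 1 row among the 61541 genes of the count table, and all 10 were among the 16768 genes that passed the filter on low counts. RNA was sequenced from A549, an established human lung adenocarcinoma line, 14 days after transduction. The 4 groups held 3 libraries each. The lone control carried the non-targeting guide gNTC1 and was grown by itself, and the co-cultured control carried the same guide in co-culture. The lone knockout carried a guide directing Cas9 at TYMS, which encodes thymidylate synthase, and the co-cultured knockout was the same kind of cell in co-culture. The series text names parental A549 as the partner of the knockout and states that proliferation was restored. The partner of the control, any separation of partners before RNA extraction, and the number of clones behind the knockout are not given in the sources used here. All groups were kept in high-glucose DMEM with fetal bovine serum. Nothing in the labels says that the replicates came from separate cultures, so p-values measure only the spread between these libraries, which may be technical.

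The first class, CXCL1, CXCL2, CXCL3, CXCL5, CXCL6 and CXCL8, carries a glutamate-leucine-arginine motif ahead of the CXC cysteines and attracts neutrophils through CXCR2, in part also CXCR1. CXCL16 is made as a transmembrane protein and is shed by ADAM10 as a ligand of CXCR6, while CCL2, CCL5 and CCL20 bind CC receptors on monocytes, T cells and dendritic cells. In epithelial cells many of these genes are known to be induced by IL-1 or TNF through NF-kB, with AP-1 and C/EBP factors at some promoters, and their mRNAs often carry AU-rich elements that shorten their life.

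Promoter sequences are shown because 7 of the 10 genes had one in the RefSeq table used (GRCh38.p14; all but CXCL16, CCL2 and CCL5), and all 7 hold a kappaB core that begins 91 bases or less before the start that RefSeq gives. The windows run 250 bases before to 50 bases after that start. It equals the GENCODE 29 gene start printed further on for CXCL1 and lies inside the GENCODE gene for the other 6, by 63 to 181 bases for CXCL2, CXCL3, CXCL5, CXCL6 and CXCL8 and by 8103 bases for CCL20. The kappaB core was searched as GGNNTTTCC on both strands, and it occurs in 6.26% of the 35116 promoters in the table. Each stretch below is written 5′ to 3′ on the strand of its gene, in lower case, with kappaB matches (the core or the longer kappaB consensus) in capitals. CXCL1 lies at chr4:73869284-73869378 on the plus strand, CXCL2 at chr4:74099210-74099303 on the minus strand and CXCL3 at chr4:74038704-74038798 on the minus strand. CXCL5 lies at chr4:73998728-73998798 on the minus strand, CXCL6 at chr4:73836558-73836628 on the plus strand, CXCL8 at chr4:73740448-73740516 on the plus strand and CCL20 at chr2:227813733-227813802 on the plus strand.
CXCL1: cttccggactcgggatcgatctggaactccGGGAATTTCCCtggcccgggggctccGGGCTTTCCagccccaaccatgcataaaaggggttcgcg
CXCL2: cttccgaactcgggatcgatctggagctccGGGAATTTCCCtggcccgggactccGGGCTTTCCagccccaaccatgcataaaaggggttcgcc
CXCL3: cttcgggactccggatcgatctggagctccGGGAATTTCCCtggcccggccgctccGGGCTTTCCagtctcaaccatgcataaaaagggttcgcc
CXCL5: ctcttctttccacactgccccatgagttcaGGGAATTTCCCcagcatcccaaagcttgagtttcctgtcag
CXCL6: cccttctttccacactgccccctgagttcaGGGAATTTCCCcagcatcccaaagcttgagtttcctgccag
CXCL8: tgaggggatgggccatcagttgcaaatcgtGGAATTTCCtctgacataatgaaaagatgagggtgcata
CCL20: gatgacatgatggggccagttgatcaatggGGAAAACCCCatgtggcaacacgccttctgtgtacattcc

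CXCL1, CXCL2 and CXCL3 carry the core at a pair of places, the nearer one beginning 53 bases before the start in each. Over the printed stretch, CXCL1 and CXCL3 have the same base at 86 of 95 positions (90.5%), and CXCL5 and CXCL6 at 68 of 71 (95.8%). The longer kappaB consensus occurs in 6 of the 7 windows, all except CXCL8, and in 11.3% of all promoters. An AP-1 motif (TGANTCA) is found in the CXCL8 window alone among the 7, beginning 137 bases before the start, and in 7.71% of all promoters. A C/EBP motif (TTNNGNAA) is found in the CXCL2 window alone, and in 36.8% of all promoters. C/EBP sites of other letters were not searched. TATAAA is found in CXCL8 and CCL20, and in 11.5% of all promoters. The kappaB forms overlap each other, all motifs were searched on both strands, and a match is a description of letters only.

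Library totals ranged from 14921371 to 35723762 counts, so that 1 CPM (counts scaled to a common library size by TMM) stood for 16.1 to 33.5 counts. TYMS, the check of the labels, averaged 95.4 and 93.4 CPM in the control grown alone and in co-culture, against 20.9 and 11.05 CPM in the knockout, in the same order. A549 is known to lack a stretch of the genome that holds CDKN2A and MTAP, yet the libraries labelled control averaged 99.3 and 72.5 CPM of CDKN2A, against 0 and 0.0398 CPM in the libraries labelled knockout. MTAP averaged 59.5 and 59.8 CPM in the control groups and 0.582 and 0.471 CPM in the knockout groups, and the epithelial marker EPCAM 104 and 101 CPM against 0.620 and 0.322 CPM. Of the 9 epithelial markers listed for A549, EPCAM among them, 4 were called higher and 4 lower in the lone knockout than in the lone control. Of all genes tested, 28.0% were called higher and 28.6% lower. Together the 9 markers gave between 14130 and 21170 CPM in every library. A difference between knockout and control therefore cannot be told apart from a difference between the cell stocks. For that reason the co-cultured and lone knockout are compared first. Replicate 3 of the co-cultured knockout stood apart from its group, as 1907 genes were called between co-cultured and lone knockout with it and 5680 without it. Results below rest on edgeR's quasi-likelihood test over all genes tested, a gene being called where its adjusted p was under 0.05.

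The first comparison asks how chemokine mRNA differed when knockout cells were grown in co-culture. In the co-cultured knockout 9 of the 10 chemokines rose and none fell, and only CXCL16 was not called. The median log2 fold change over the 10 was 3.29, against 0.01 over all genes tested, of which 5.97% were called higher and 5.40% lower. Together the 10 genes took 0.355% ± 0.0666 of all counts in the co-cultured knockout and 0.0489% ± 0.00712 in the lone knockout (SD, n = 3 each). Their share was 0.0568% ± 0.0149 in the lone control and 0.0662% ± 0.00548 in the co-cultured control (SD, n = 3 each). Without replicate 3 of the co-cultured knockout 10 were called. These are bulk libraries, in which more cells making a chemokine and more mRNA per cell cannot be told apart.

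**Figure D1:**
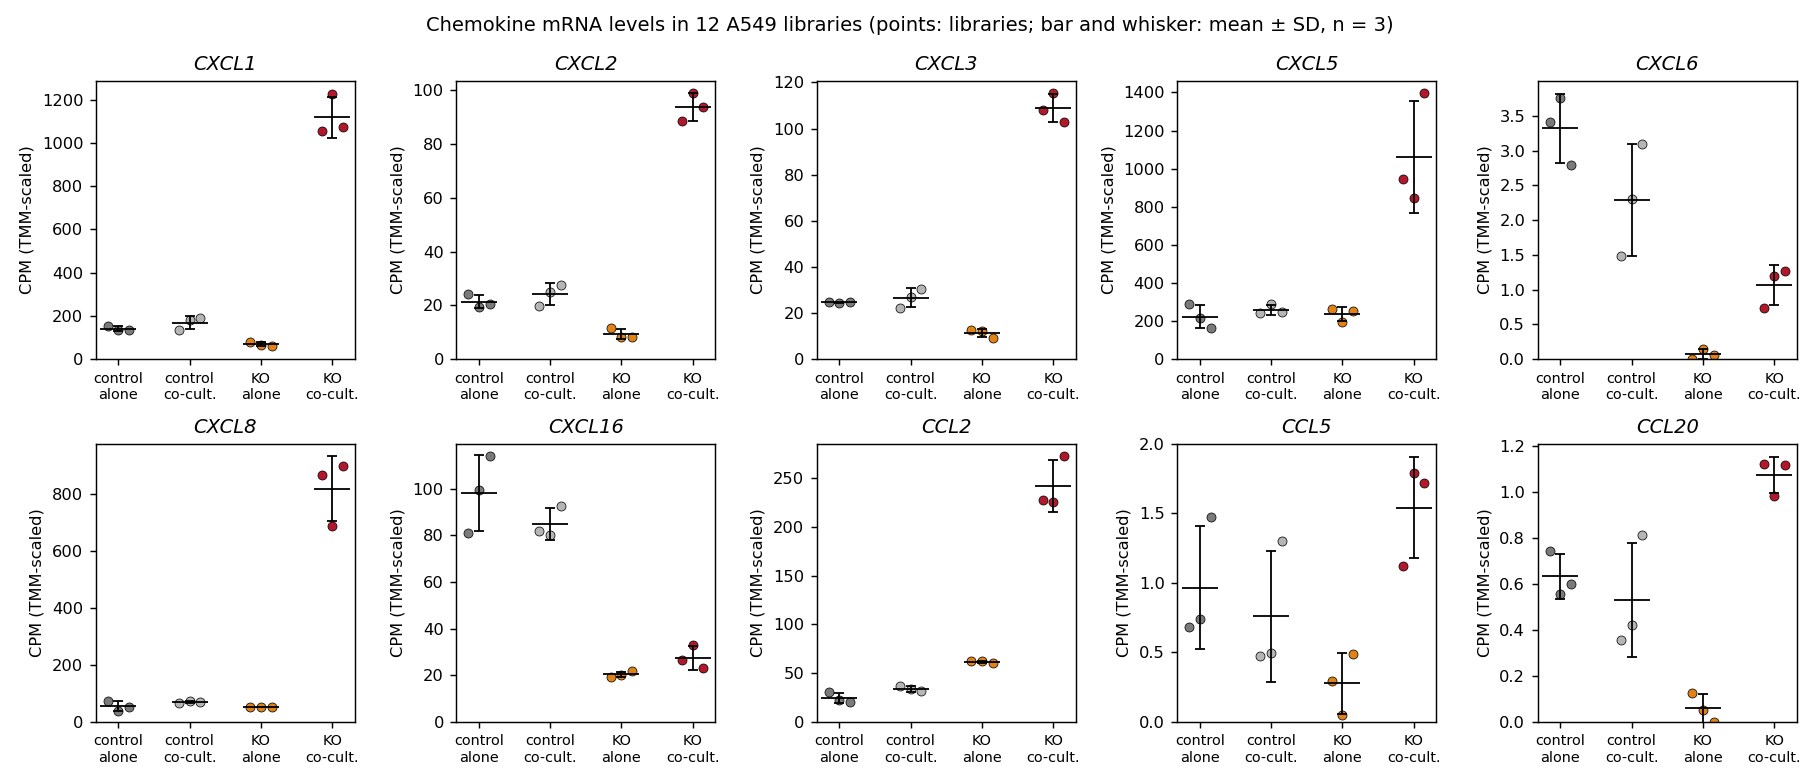
Level of each chemokine in CPM (y axis, a separate linear scale per gene) in the 4 groups (x axis). Points are libraries and the bar and whisker give the mean ± SD of 3 libraries. Apart from CXCL6 and CXCL16, each gene has its highest mean in the co-cultured knockout.

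CXCL1 (ENSG00000163739; GRCh38 chromosome 4, 73869393 to 73871242, plus strand), a neutrophil attractant first described as a melanoma growth factor, had the most mRNA per kilobase of exon in the co-cultured knockout. Its level was 1055, 1228 and 1074 CPM in the 3 co-cultured knockout libraries and 80.3, 66.7 and 62.3 CPM in the lone knockout. The lone control libraries held 152, 136 and 135 CPM, and the co-cultured control 133, 180 and 190 CPM. Every co-cultured knockout library was thus far above all 9 others, and the lone knockout lay below both control groups. Between co-cultured and lone knockout the rise was 16.0-fold (4.003 on the log2 scale, SE 0.18, edgeR adjusted p = 1.71e-07).

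CXCL2 (ENSG00000081041; chromosome 4, 74097035 to 74099293, minus strand) and CXCL3 (ENSG00000163734; chromosome 4, 74036589 to 74038807, minus strand) are close relatives of CXCL1 that act on the same receptor. CXCL2 stood at 88.8, 98.9 and 93.7 CPM in the co-cultured knockout and at 11.5, 8.17 and 8.21 CPM in the lone knockout. In the lone control it stood at 24.2, 19.5 and 20.5 CPM and in the co-cultured control at 19.6, 25.1 and 27.6 CPM. The order of the groups was that of CXCL1. CXCL3 stood at 108, 115 and 103 CPM in the co-cultured knockout and at 12.7, 12.2 and 9.31 CPM in the lone knockout. Control libraries held 24.8, 24.4 and 24.7 CPM of CXCL3 alone and 22.2, 27.0 and 30.6 CPM in co-culture. Both genes rose with the co-culture of the knockout, CXCL2 by 3.33 on the log2 scale (SE 0.19, edgeR adjusted p = 8.24e-07) and CXCL3 by 3.25 (SE 0.16, edgeR adjusted p = 2.14e-07). Part of their transcripts is shared within this trio, namely 4.81%, 12.5% and 6.01% of the 50-base windows of CXCL1, CXCL2 and CXCL3, so counts could be split between them to that extent.

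CXCL8 (ENSG00000169429; chromosome 4, 73740506 to 73743716, plus strand), the neutrophil attractant that binds both CXCR1 and CXCR2, shares no such window with another gene. The co-cultured knockout held 868, 688 and 897 CPM of it, and the lone knockout 51.4, 53.1 and 52.6 CPM. Lone control libraries were at 74.4, 37.0 and 53.3 CPM and co-cultured control libraries at 66.7, 73.5 and 69.5 CPM. All 9 libraries outside the co-cultured knockout thus lay together, between 37.0 and 74.4 CPM. The rise with co-culture was 15.6-fold (3.97 on the log2 scale, SE 0.23, edgeR adjusted p = 9.07e-07). With offsets for transcript GC content it was 4.78 on that scale.

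CXCL5 (ENSG00000163735; chromosome 4, 73995642 to 73998779, minus strand), another CXCR2 ligand of epithelial cells, was already abundant in every group. It stood at 946, 844 and 1398 CPM in the co-cultured knockout, where replicate 3 was the highest, and at 262, 195 and 251 CPM in the lone knockout. Lone control libraries held 288, 215 and 165 CPM, and co-cultured control libraries 240, 289 and 249 CPM. Lone knockout and both controls overlapped. CXCL5 rose 4.50-fold with co-culture of the knockout (2.17 on the log2 scale, SE 0.24, edgeR adjusted p = 0.000163). The log2 value was 1.93 without replicate 3 of the co-cultured knockout and 2.76 with GC offsets.

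CXCL6 (ENSG00000124875; chromosome 4, 73836497 to 73849064, plus strand), which binds CXCR1 and CXCR2, was scarce. In the lone knockout 0, 3 and 1 counts were seen, and in the co-cultured knockout 17, 40 and 34, or 0.733, 1.19 and 1.27 CPM. The controls held more, with 3.41, 3.76 and 2.79 CPM alone and 1.48, 2.30 and 3.10 CPM in co-culture. CXCL6 is thus the member of its class whose level in the co-cultured knockout stayed below both control means. From the summed counts, 91 against 4, the ratio of co-cultured to lone knockout was 16.4, with an exact 95% interval for counting error alone of 6.18 to 61.4. The fitted log2 fold change was 3.89 (SE 0.60, edgeR adjusted p = 0.00185), a value that depends on the prior count. It was 3.23 without replicate 1 and 5.13 without replicate 2 of the lone knockout. Exons of CXCL6 overlap those of the pseudogene PPBPP1 on the same strand, and the counting rule for such overlaps is not given in the sources used here.

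CXCL16 (ENSG00000161921; chromosome 17, 4733526 to 4739922, minus strand) was the one member not called between co-cultured and lone knockout. Its lone control libraries held 81.2, 99.4 and 114 CPM and its co-cultured control libraries 81.8, 80.4 and 92.6 CPM. The lone knockout held 19.4, 20.02 and 21.6 CPM and the co-cultured knockout 26.3, 32.9 and 22.9 CPM. Knockout libraries were thus all below control libraries, and those in co-culture all slightly above those grown alone. The log2 fold change between co-cultured and lone knockout was 0.43 (SE 0.16, edgeR adjusted p = 0.0999) and did not pass the test. It passed in 4 of 20 alternative analyses (adjusted p by edgeR or DESeq2 from 0.0209 to 0.390 over all 20), among them the one without replicate 3 of the co-cultured knockout (0.55, edgeR adjusted p = 0.0209). Exons of MED11 overlap CXCL16 on the opposite strand, and MED11 stood at 20.4 CPM in the lone and 21.2 CPM in the co-cultured knockout.

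CCL2 (ENSG00000108691; chromosome 17, 34255218 to 34257203, plus strand), the main monocyte attractant, was the CC chemokine with the most mRNA. Its co-cultured knockout libraries held 228, 226 and 273 CPM and its lone knockout libraries 62.4, 62.3 and 60.7 CPM. In the controls it stood at 30.2, 22.8 and 20.4 CPM alone and at 37.1, 33.1 and 31.1 CPM in co-culture. No 2 of the 4 groups overlapped, and both knockout groups lay above both controls. Between co-cultured and lone knockout CCL2 rose 3.92-fold (log2 fold change 1.97, SE 0.16, edgeR adjusted p = 1.63e-05).

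CCL5 (ENSG00000271503; chromosome 17, 35871491 to 35880793, minus strand), an attractant of T cells and monocytes, and CCL20 (ENSG00000115009; chromosome 2, 227805739 to 227817564, plus strand), the ligand of CCR6, were near the limit of detection. CCL5 had 7, 1 and 8 counts in the lone knockout, whereas its co-culture gave 26, 60 and 46 counts, or 1.12, 1.79 and 1.72 CPM. Control libraries held 0.682, 0.739 and 1.48 CPM of CCL5 alone and 0.475, 0.498 and 1.30 CPM in co-culture. CCL20 had 3, 1 and 0 counts in the lone knockout, whereas its co-culture gave 26, 33 and 30 counts, or 1.12, 0.984 and 1.12 CPM. Its control libraries held 0.744, 0.554 and 0.601 CPM alone and 0.356, 0.421 and 0.815 CPM in co-culture. For both genes the lone knockout was lowest and the co-cultured knockout was highest by group mean.

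Summed counts gave a ratio of co-cultured to lone knockout of 5.94 for CCL5 (exact 95% interval for counting error alone 3.53 to 10.7) and of 16.0 for CCL20 (6.04 to 60.1). The fitted rise of CCL20 was 3.91 on the log2 scale (SE 0.55, edgeR adjusted p = 0.000884), 4.64 with GC offsets and 5.03 without replicate 1 of the lone knockout. The rise of CCL5 was 2.50 on the log2 scale (SE 0.57, edgeR adjusted p = 0.0170). That call ended with only the compared groups in the fit (edgeR adjusted p = 0.0515) and without replicate 1 (0.0726) or replicate 2 (0.0695) of the lone knockout in the same edgeR test. In CCL5, 13.9% of 50-base windows also occur in other genes, 288 of them.

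Per kilobase of exon, the order in the co-cultured knockout was CXCL1 (863 CPM per kb), CXCL5 (419), CXCL8 (360), CCL2 (122), CXCL2 (62.5), CXCL3 (49.04), CXCL16 (9.79), CCL5 (1.02), CCL20 (0.674) and CXCL6 (0.488). Of these neighbours only CXCL5 and CXCL8 overlapped between libraries. In the lone knockout CXCL5 came first at 93.06 CPM per kb, ahead of CXCL1 at 53.8, CCL2 at 31.1 and CXCL8 at 23.0, and these 4 did not overlap with the next in order. In the lone control CXCL1 (109 CPM per kb) and CXCL5 (87.8) overlapped at the top, followed by CXCL16 (35.1) and CXCL8 (24.1), which also overlapped. CXCL16 thus ranked 3 of 10 in the lone control, 5 in the lone knockout and 7 in the co-cultured knockout.

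**Figure D2:**
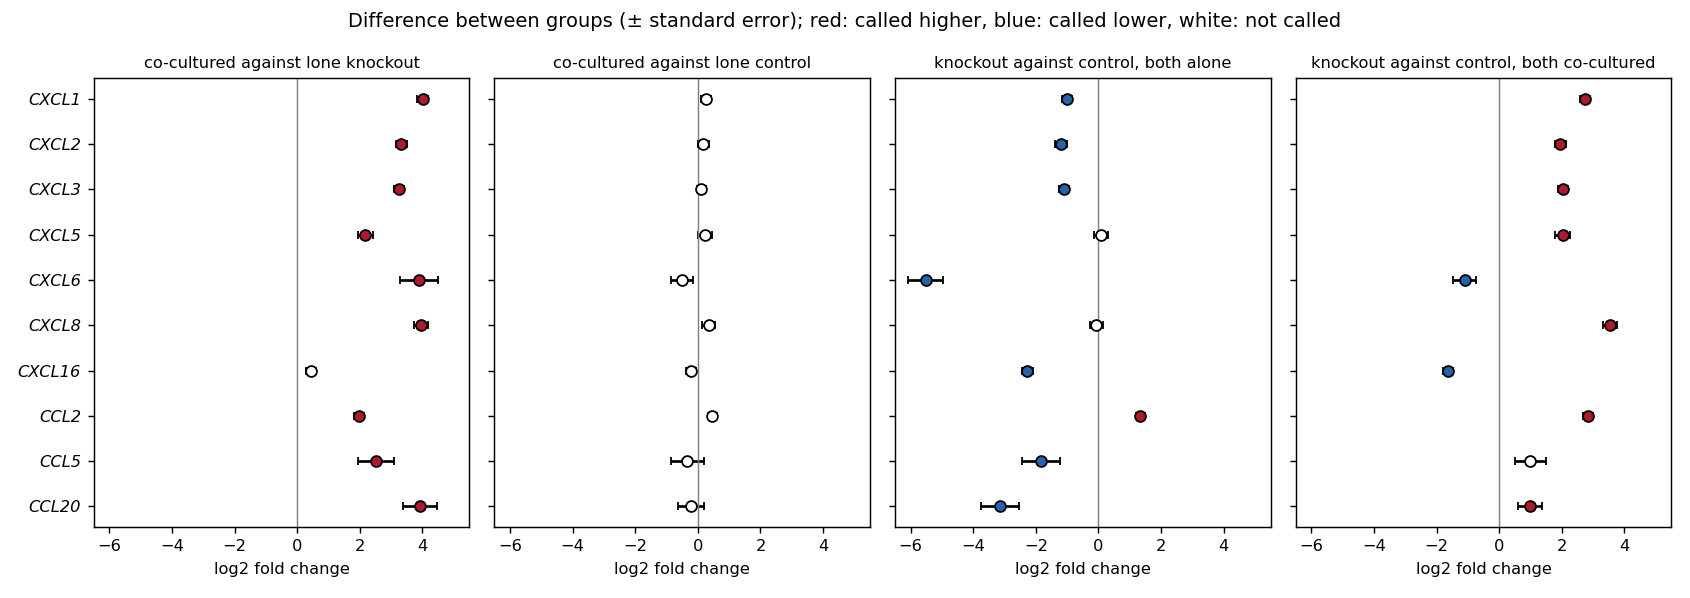
Each chemokine (y axis) by its log2 fold change (x axis) in the 4 pairwise comparisons, one panel each, with whiskers of 1 standard error. Filled red points were called higher and filled blue points lower. All 10 are unfilled in the control panel, and 9 are red in the first.

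Co-culture of control cells gave no such difference. None of the 10 chemokines was called between co-cultured and lone control by edgeR, and none of the 16768 genes was (0% called), with 540 genes at an unadjusted p under 0.05. DESeq2 called 0 genes as well. Values of the 10 ranged from -0.52 for CXCL6 (SE 0.35) to 0.46 for CCL2 (SE 0.15) on the log2 scale. CCL2 stood at 20.4 to 30.2 CPM alone and 31.1 to 37.1 CPM in co-culture (edgeR adjusted p = 1).

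The interaction subtracts the co-culture difference of the control from that of the knockout. It was positive and called for 8 of the 10, while 1.51% of all genes tested were called higher. The median of the interaction over the 10 was 3.15, against 0.01 over all genes. It uses the same co-cultured and lone knockout libraries as the first comparison, and is not a separate set of measurements. The interaction also sets control against knockout libraries, so the TYMS knockout, the cell stock and the co-culture partner cannot be told apart in it. By size the called values ran from 1.51 for CCL2 (SE 0.22, edgeR adjusted p = 0.00376) to 4.41 for CXCL6 (SE 0.71, edgeR adjusted p = 0.00729). CXCL5 (1.95, SE 0.32, edgeR adjusted p = 0.00842) was not called when scaled by library size only (edgeR adjusted p = 0.0505). CXCL16 (0.64, SE 0.23, edgeR adjusted p = 0.181) and CCL5 (2.84, SE 0.78, edgeR adjusted p = 0.0949) were not called. Of 19 alternative analyses, CXCL16 passed in 1, without replicate 3 of the co-cultured knockout (edgeR adjusted p = 0.0270; range over all 19, DESeq2 included, from 0.0270 to 0.409). CCL5 passed in 6 of the 19 (adjusted p by edgeR or DESeq2 from 0.000312 to 0.290 over all 19), among them those without the filter, with GC offsets, by DESeq2 and without that library. Without replicate 3 of the co-cultured control the CCL5 value was 3.49.

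The next comparison asks how the lone knockout differed from the lone control, and shares the lone knockout libraries with the first. Of the 10 chemokines 7 fell, 1 rose and 2 were not called, against 28.6% of all genes called lower and 28.0% called higher. The median was -1.16 on the log2 scale, against 0.09 over all genes tested. CXCL1, CXCL2 and CXCL3 fell by 1.02, 1.20 and 1.11 on the log2 scale (SE 0.15 to 0.18, edgeR adjusted p from 5.43e-05 to 0.000166), that is 2.02-fold, 2.30-fold and 2.16-fold lower. CXCL16 was 4.83-fold lower (log2 fold change -2.27, SE 0.17, edgeR adjusted p = 2.12e-07). CCL2 moved the other way and was 2.53-fold higher (log2 fold change 1.34, SE 0.16, edgeR adjusted p = 1.19e-05).

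The 3 scarce genes were also lower in the lone knockout. Summed counts gave a ratio of lone control to lone knockout of 49.6 for CXCL6 (167 against 4 counts, exact 95% interval 19.0 to 184), of 9.50 for CCL20 (32 against 4, 3.37 to 37.0) and of 3.71 for CCL5 (50 against 16, 2.08 to 6.98). The fitted log2 fold changes were -5.51 for CXCL6 (SE 0.56, edgeR adjusted p = 3.90e-06), -3.16 for CCL20 (SE 0.61, edgeR adjusted p = 0.000708) and -1.84 for CCL5 (SE 0.62, edgeR adjusted p = 0.0219). Without replicate 1 of the lone knockout the values were -4.86 for CXCL6 and -4.27 for CCL20, and without its replicate 2 CXCL6 was at -6.75. CCL20 was at -3.79 with GC offsets. The CCL5 call ended without replicate 3 of the lone control (edgeR adjusted p = 0.111) and without replicate 1 or 2 of the lone knockout (edgeR adjusted p = 0.0537 and 0.0766).

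CXCL5 (0.08 on the log2 scale, SE 0.23, edgeR adjusted p = 0.769) and CXCL8 (-0.07, SE 0.21, edgeR adjusted p = 0.791) were not called between lone knockout and lone control. These 2 depended on the scaling. With GC offsets CXCL5 was at -0.47 (edgeR adjusted p = 0.0235) and CXCL8 at -0.71 (edgeR adjusted p = 0.0479), both called lower, and CXCL8 was at 0.06 when scaled by library size only. Library size only moved the median of all genes in this comparison up by 0.16 on the log2 scale.

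In co-culture, where knockout and control were again compared, 7 of the 10 were higher in the knockout, 2 were lower and 1 was not called. Of all genes tested 24.1% were called higher and 25.3% lower. The median of the 10 was 1.99, against -0.02 over all genes. CXCL8 was 11.7-fold higher (log2 fold change 3.55, SE 0.22, edgeR adjusted p = 5.78e-08), CCL2 7.18-fold (2.84, SE 0.16, edgeR adjusted p = 2.14e-08) and CXCL1 6.66-fold (2.74, SE 0.17, edgeR adjusted p = 4.69e-08). CXCL2, CXCL3 and CXCL5 were higher by 1.96, 2.03 and 2.03 on the log2 scale (SE 0.15 to 0.24, edgeR adjusted p from 2.63e-07 to 1.33e-05). CXCL16 remained lower in the knockout in co-culture, at -1.63 on the log2 scale (SE 0.16, edgeR adjusted p = 3.69e-06).

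The calls of the scarce genes were less firm in that comparison. CXCL6 was at -1.11 (SE 0.37, edgeR adjusted p = 0.0234), and its call ended without replicate 2 or 3 of the co-cultured control (edgeR adjusted p = 0.0539 and 0.104) or replicate 1 of the co-cultured knockout (edgeR adjusted p = 0.0887). CCL20 was at 0.98 (SE 0.38, edgeR adjusted p = 0.0468) and kept its call in 6 of 20 alternative analyses, with adjusted p between 0.0181 and 0.162. CCL5 was at 1.001 (SE 0.48, edgeR adjusted p = 0.104) and was called in 5 of 20. One of those was the fit with the replicate number as a block (edgeR adjusted p = 0.0401), and another left out replicate 3 of the co-cultured control (1.63, edgeR adjusted p = 0.0278).

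**Figure D3:**
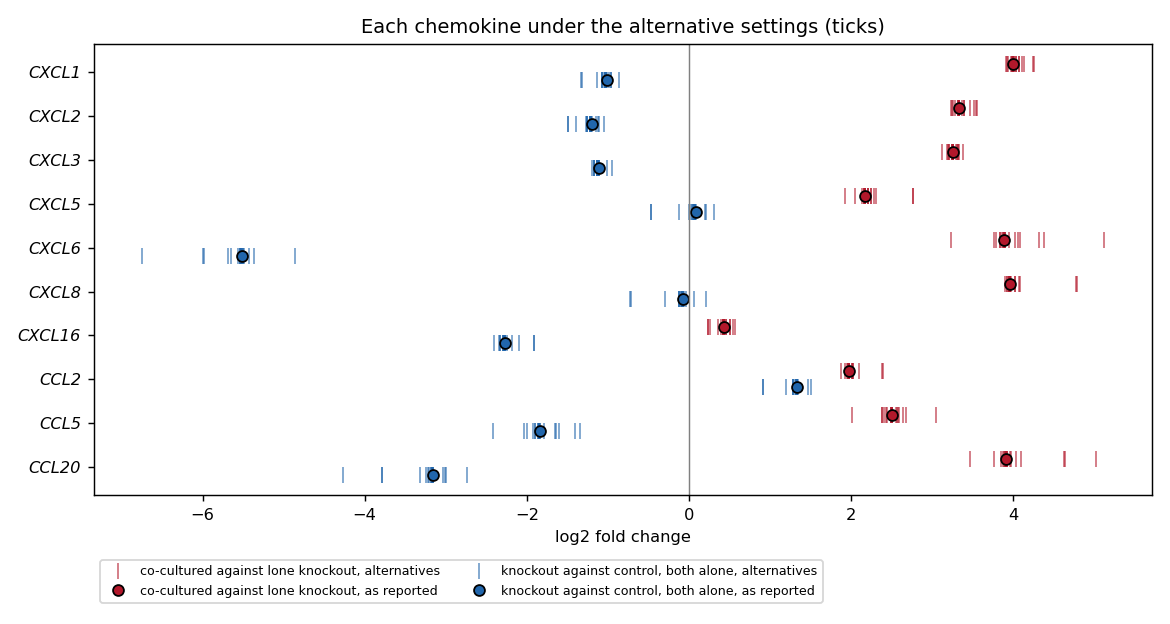
Log2 fold change (x axis) of each chemokine (y axis) for co-cultured against lone knockout (red) and lone knockout against lone control (blue). Dots are the values reported and ticks the alternative analyses. All red ticks lie above 0, while the blue ticks of CXCL5 and CXCL8 fall on both sides of it.

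CXCL8, CXCL6, CXCL1, CXCL5, CXCL3 and CXCL2 lie in that order within 356.5 kb on chromosome 4, counted between gene starts in the reference, with the platelet chemokine genes PF4V1, PF4 and PPBP among them. All 6 were called higher with co-culture of the knockout, against 5.97% of all genes tested. PPBP, a platelet chemokine whose gene lies 8.60 kb from that of CXCL5, had 0.673 CPM in the lone and 0.909 CPM in the co-cultured knockout (0.41 on the log2 scale, edgeR adjusted p = 0.486) and no counts in any control library. MTHFD2L, an enzyme of mitochondrial folate metabolism 17.1 kb beyond CXCL2, was at 5.14 and 5.40 CPM (0.07, edgeR adjusted p = 0.865). On the other side RASSF6 was at 3.13 and 2.16 CPM (-0.55, edgeR adjusted p = 0.408). Beyond MTHFD2L, AREG, which encodes the EGFR ligand amphiregulin, rose from 14.0 to 31.3 CPM (1.16, edgeR adjusted p = 0.000295), whereas EREG was at 38.5 and 32.9 CPM (-0.23, edgeR adjusted p = 0.722). BTC (0.22) and PARM1 (0.19) were not called either. PF4, PF4V1, EPGN and AFM were too low to be tested. These neighbours outside the nearest ones were picked after values had been seen.

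**Figure D4:**
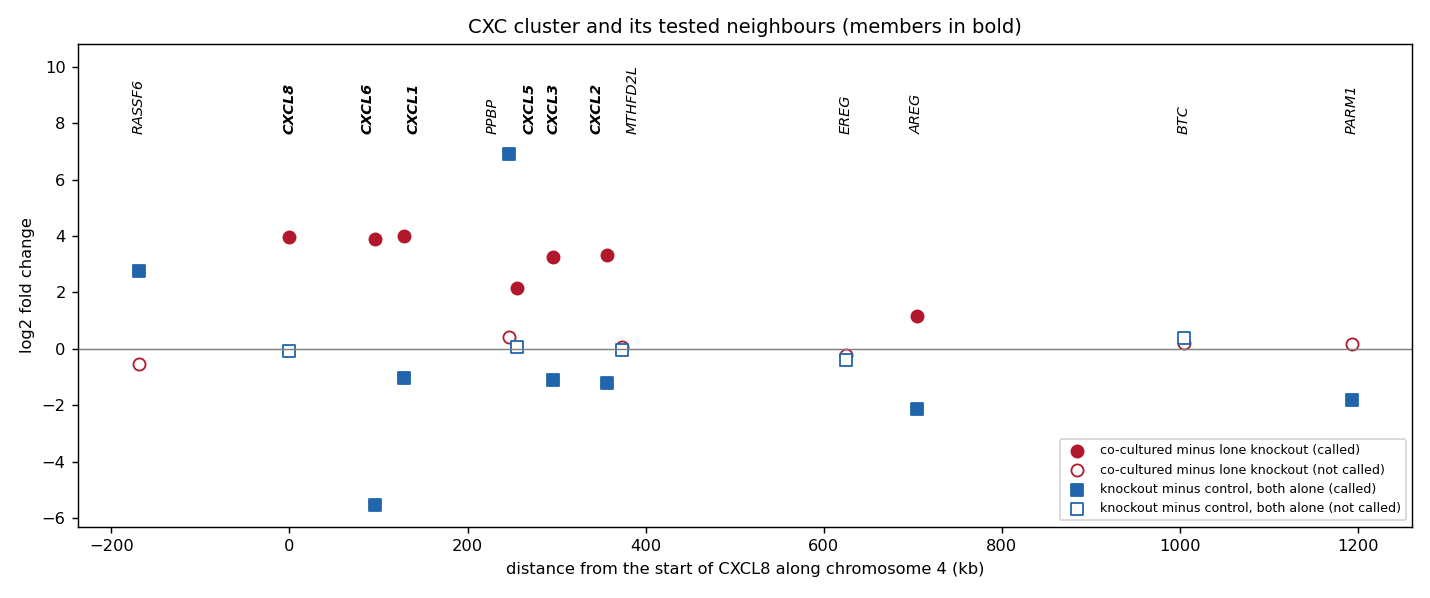
Log2 fold change (y axis) of the chromosome 4 chemokines and their tested neighbours by distance of each gene start from that of CXCL8 (x axis, kb). Circles compare co-cultured with lone knockout and squares lone knockout with lone control. Filled symbols were called. The 6 chemokines have filled circles between 2.17 and 4.003, while AREG at 1.16 is the only other filled circle. The square of PPBP depends on the prior count, as no control library had a count.

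Away from chromosome 4, the nearest tested neighbours did not pass in co-cultured against lone knockout. Around CCL2 they were TLK2P1 (-0.43, edgeR adjusted p = 0.466) and CCT6B (0.40, edgeR adjusted p = 0.549). Around CCL20 they were SLC19A3, a thiamine transporter (0.43, edgeR adjusted p = 0.307), and DAW1 (-0.05, edgeR adjusted p = 0.962). Next to CCL5 lay RDM1 (0.57, edgeR adjusted p = 0.107) and an unnamed gene (-1.54, edgeR adjusted p = 0.166). CXCL16 had MED11 (0.06, edgeR adjusted p = 0.826) and ZMYND15 (0.33, edgeR adjusted p = 0.633).

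For each chemokine the gene with the most similar pattern was sought by Pearson correlation of log2 CPM over the 12 libraries, among 11158 tested genes with a symbol and at least 5 CPM in a group mean. The libraries fall into 4 groups, so these values mainly describe how alike the group levels are. CXCL1 was nearest to CTSC, which encodes cathepsin C (r = 0.979), CXCL2 to TRIM31, a ubiquitin ligase (0.977), and CXCL3 to SAA1, an acute-phase protein (0.981). CXCL5 was nearest to TNFAIP3, the feedback inhibitor of NF-kB also called A20 (0.975), and CXCL8 to SEC11C, a subunit of the signal peptidase (0.972). CCL2 was nearest to IRAK2, a kinase of the IL-1 receptor pathway (0.989), CCL20 to KCNK1 (0.978), CXCL6 to NR4A1 (0.982) and CCL5 to TMEM165 (0.934). CXCL16 had its closest match in PPARD, a lipid-sensing nuclear receptor (0.999), at 57.8 and 53.3 CPM in the controls (alone, then co-cultured), against 18.8 and 22.9 CPM in the knockout. Among the members themselves, CXCL1, CXCL2 and CXCL3 correlated at 0.989 to 0.994, and CXCL5 with CXCL8 at 0.973.

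Few other chemokines were expressed. Of 36 further chemokine genes 3 were tested, and 1 was called higher with co-culture of the knockout, against 5.97% of all genes. This was CCL26, which draws eosinophils, with 1.45 CPM in the lone knockout and 3.05 CPM in its co-culture (1.08 on the log2 scale, edgeR adjusted p = 0.0391), and with 0.746 and 1.03 CPM in the controls. The CCL26 call ended with only the compared groups in the fit, where 0 of these genes were called, and between 0 and 1 were called when a library was left out. CX3CL1, a membrane-bound chemokine like CXCL16, was at 0.0332 and 0.166 CPM in the lone and co-cultured knockout and did not pass (edgeR adjusted p = 0.129), against 4.02 and 3.11 CPM in the controls. CXCL10, which interferons induce, averaged at most 0.0570 CPM in any group.

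Receptors for these ligands were mostly absent from the libraries. Of 23 receptor genes 4 were tested, with 2 called higher and 1 lower with co-culture of the knockout. The shares over all genes were 5.97% and 5.40%. CXCR1 and CXCR2 averaged at most 0.0928 and 0.243 CPM, CCR2 at most 0.0373 CPM, CXCR6 at most 0.0995 CPM, and CCR6 had no counts. ACKR3, a scavenging receptor that binds CXCL12 but none of the 10, fell from 34.9 to 14.2 CPM (log2 fold change -1.30, edgeR adjusted p = 0.00976), and averaged at most 0.0752 CPM in the controls. CXCR4 rose from 5.84 to 9.56 CPM (0.71, edgeR adjusted p = 0.0489) and CCR7 from 4.46 to 7.55 CPM (0.76, edgeR adjusted p = 0.0470). CXCR4 and CCR7 are not receptors of the 10 either. The list's count of calls was 1 in place of 3 under library-size scaling, with only the compared groups in the fit and under the replicate block, and ranged from 0 to 3 when a library was left out.

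Genes of NF-kB and its feedback were counted next. Of 18 tested, 6 were called higher and 0 lower with co-culture of the knockout, with a median of 0.48 on the log2 scale. In that comparison 5.97% of all genes were called higher and 5.40% lower. TNFAIP3 rose from 17.7 to 86.1 CPM (log2 fold change 2.28, edgeR adjusted p = 9.45e-05), NFKBIZ, an atypical IkB protein, by 1.73 (edgeR adjusted p = 0.000899), TNIP1, a partner of A20, by 1.24 (edgeR adjusted p = 0.00209) and NFKBIA, which encodes IkB alpha, by 1.20 (edgeR adjusted p = 0.000304). Of the subunit genes, RELB rose from 58.5 to 99.7 CPM and was called (0.77, edgeR adjusted p = 0.0468). RELA, at 118 CPM in the lone and 138 CPM in the co-cultured knockout, was not called. Neither were NFKB1 (0.23), NFKB2 (0.51, edgeR adjusted p = 0.0715) and REL (-1.06, edgeR adjusted p = 0.114). Genes of the list outside the subunits that were not called included BIRC3 (-0.09), TRAF1 (-0.19) and NFKBIE (0.12). In the lone knockout against the lone control the same list had 5 called higher and 5 lower of 18, where 28.0% and 28.6% of all genes were called. In co-cultured against lone knockout the list had between 4 and 13 called when a library was left out, the 13 without replicate 3 of the co-cultured knockout, where calls over all genes rose to 5680.

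A further list held cytokines and cytokine receptors, not all of which are known to induce chemokines. Of 19 tested, 8 were called higher and 0 lower with co-culture of the knockout (median 0.72 on the log2 scale). Over all genes the shares were 5.97% and 5.40%. IL1B, which encodes interleukin-1 beta, rose from 1.10 to 14.0 CPM (log2 fold change 3.66, edgeR adjusted p = 5.94e-05) and IL6 from 1.83 to 17.1 CPM (3.22, edgeR adjusted p = 0.000107). The colony-stimulating factor genes CSF2 and CSF3 rose from 0.146 to 7.32 CPM and from 0.0406 to 3.81 CPM (edgeR adjusted p = 1.33e-05 and 9.62e-05). TNF was at 0 CPM in the lone and 0.134 CPM in the co-cultured knockout and was not tested. The receptor genes IL1R1 (19.66 and 10.06 CPM, -0.97, edgeR adjusted p = 0.114) and IL6ST (29.36 and 12.85 CPM, -1.20, edgeR adjusted p = 0.119) were not called. With GC offsets, where calls over all genes rose to 4911, 13 members of this list were called. With only the compared groups in the fit 7 were called, and between 5 and 11 when a library was left out.

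Among 13 C/EBP, AP-1 and related factors, 6 were called higher and 0 lower with co-culture of the knockout (median 0.87). The shares of all genes were 5.97% and 5.40%. FOSB rose by 2.46 on the log2 scale (edgeR adjusted p = 6.87e-05), the stress-induced factor ATF3 by 2.36 (edgeR adjusted p = 5.70e-06), FOS by 2.24 (edgeR adjusted p = 0.000107) and CEBPD by 1.86 (edgeR adjusted p = 0.00216). FOS averaged 3.45 CPM in the co-cultured knockout, below 7.4 and 6.3 CPM in the lone and co-cultured control. The co-cultured knockout means of FOSB, ATF3 and CEBPD were above both control means. The count of called factors was 10 with GC offsets, which raised the calls over all genes to 4911. It was 5 with only the compared groups in the fit, and between 5 and 9 when a library was left out. Of 9 genes for AU-rich mRNA decay or stability, 2 were called higher and 0 lower (median -0.13), against 5.97% and 5.40% of all genes. ZC3H12A, a ribonuclease that cleaves inflammatory mRNAs, rose from 56.2 to 260.0 CPM (2.21, edgeR adjusted p = 4.25e-05) and ZFP36, which binds AU-rich elements, from 22.0 to 37.5 CPM (0.77, edgeR adjusted p = 0.00524).

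Of 7 tested genes for shedding and processing of chemokines, 1 was called higher and 0 lower with co-culture of the knockout. The median was -0.09 on the log2 scale, and 5.97% of all genes were called higher and 5.40% lower. The lysosomal protease gene CTSB rose from 727 to 1289 CPM (log2 fold change 0.83, edgeR adjusted p = 0.00400). ADAM10, the sheddase of CXCL16, was at 47.5 CPM in the lone and 25.7 CPM in the co-cultured knockout and was not called (-0.89, edgeR adjusted p = 0.148). With GC offsets, where calls over all genes rose to 4911, 4 members of this list were called. Between 1 and 3 were called when a library was left out, where calls over all genes ranged from 536 to 5680. In co-cultured against lone control no member of any of these lists was called, nor was any of the 16768 genes tested.

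**Figure D5:**
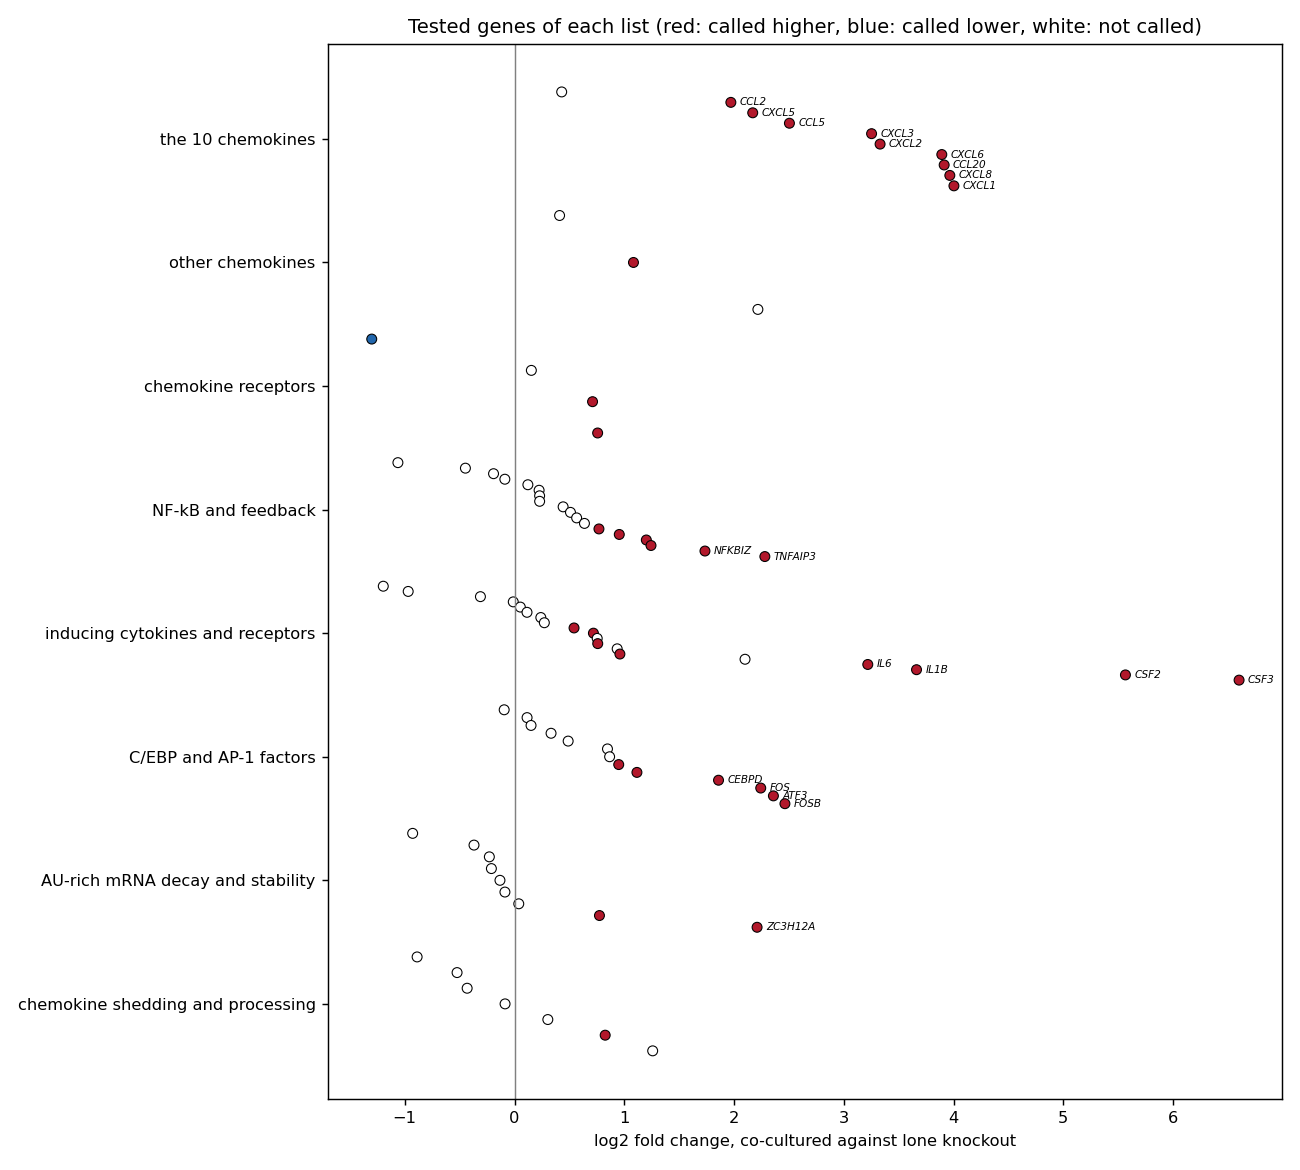
Log2 fold change between co-cultured and lone knockout (x axis) for the tested genes of each list (y axis, genes spread vertically by rank). Red points were called higher, blue lower and white not called. Of the 10 chemokines 9 lie at 1.97 or above. Of the other lists, the one labelled inducing cytokines and receptors holds the points farthest to the right, CSF2 and CSF3. Their lone knockout means were under 0.15 CPM.

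Markers of cells that also make chemokines were measured beside these results. The 9 leukocyte markers summed to between 4.66 and 5.72 CPM in the lone knockout and between 8.40 and 11.4 CPM in the co-cultured knockout. CD3E and FCGR3B had no counts in any group, and PTPRC, the pan-leukocyte gene, averaged at most 0.0207 CPM. Of the 4 leukocyte markers tested, CD14 (0.866 CPM alone, 3.25 CPM in co-culture) and CD68 (0.893 and 2.99 CPM) were called higher with co-culture of the knockout (edgeR adjusted p = 0.00563 and 0.00637). In that comparison 5.97% of all genes were called higher. The 6 fibroblast markers summed to between 21.8 and 24.5 CPM in the lone and 12.8 and 16.7 CPM in the co-cultured knockout, nearly all of it COL1A1, and the 4 endothelial markers stayed at or under 2.73 CPM in every library. The other tested leukocyte markers, CSF1R (1.32, edgeR adjusted p = 0.147) and ITGAM (-0.28, edgeR adjusted p = 0.454), were not called there. CD14 averaged 4.76 CPM in the lone and 2.63 CPM in the co-cultured control. CD68 averaged 0.135 and 0.191 CPM in these groups, below both knockout groups. The part of CD14-positive or CD68-positive cells in the chemokine levels was not tested. CDKN2A, EPCAM and TYMS, which the control libraries expressed, were at 0.0398, 0.322 and 11.05 CPM in the co-cultured knockout. As A549 is known to lack CDKN2A, its level cannot show whether cells of the named partner, parental A549, were present. The amount of partner cells in these libraries was not tested.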

How the data were processed

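The authors deposited a table of unnormalized counts by Ensembl gene identifier, whose 12 columns were matched to samples by name. The submitters' processing notes name FastQC, STAR 2.7.9a, featureCounts, R 4.2.1 and DESeq2 1.36.0 with GRCh38, without roles. The annotation and strand setting are not given in the sources used here, and neither are settings that decide how reads shared by similar genes were counted. Per the labels' protocols, the RNA was total RNA (miRNeasy) and library preparation used a NEBNext Ultra RNA kit.

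These counts entered edgeR 4.0.16 (R 4.3.3). Genes were filtered by filterByExpr, scaled by TMM and fitted over all 12 libraries as 4 group means (robust quasi-likelihood; biological coefficient of variation 22.1%), with Benjamini-Hochberg adjustment over the 16768 genes tested in each comparison. The SE is the log2 fold change divided by the square root of F. CPM values are TMM-scaled, each ± is an SD over 3 libraries, and intervals cover counting error only. Symbols were found for 42045 of 61541 identifiers, and positions come from 58366 matched in GENCODE 29. The script was tested on simulated data.

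The 10 members and the context lists were chosen with earlier results of these data known. From each context list at most the 4 tested genes with the smallest p in co-cultured against lone knockout were named, plus receptors and other chemokines at 5 CPM or more. RELA and the other NF-kB subunits, BIRC3, TRAF1, NFKBIE, TNF, IL1R1, IL6ST, CXCL10 and the untested receptors were named after values were seen. So were the single cell type markers, CDKN2A, MTAP and the farther neighbours on chromosome 4. No pair of replicates was a repeated library (chi-square per gene 8.79 to 134, where 1 is sampling noise). Replicate numbers are shared by the groups, but deviations of same-numbered libraries correlated at -0.603 to 0.491, so they were not treated as pairs. Alternatives were other scalings, no filter, a DESeq2 1.42.0 Wald test, fewer groups in the fit, GC offsets, a replicate block and leaving out each library. Protein sequences were not used here. Some receptor and marker genes of the lists are not reported here.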

Additional observations from a re-analysis of the deposited data

Results flagged for a closer look

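For 8 of the 10 chemokines the co-culture difference in knockout cells differed from that in control cells by the interaction test of edgeR. In that test the TYMS knockout, the cell stock and the co-culture partner cannot be told apart. The log2 difference of differences was 4.41 for CXCL6, 4.14 for CCL20, 3.75 for CXCL1, 3.62 for CXCL8, 3.16 for CXCL2, 3.14 for CXCL3, 1.95 for CXCL5 and 1.51 for CCL2. Counts of CXCL6 and CCL20 in the lone knockout were 0 to 3 per library, so their values depend on the prior count. For CXCL6 the value was 3.75 without replicate 1 and 5.64 without replicate 2 of the lone knockout, and for CCL20 it was 5.25 without replicate 1. The interaction called 301 of all genes with replicate 3 of the co-cultured knockout and 3623 without it, and 10 chemokines without it.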

How the results depend on the processing

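The number of chemokines called ranged over the alternative analyses from 8 to 10 between co-cultured and lone knockout and from 7 to 10 in the interaction. It was 0 in each for co-cultured against lone control. In both comparisons of knockout with control it ranged from 7 to 10. When a library was left out, calls over all genes ranged from 7959 to 10525 between lone knockout and lone control. Between the co-cultured groups that range was 7145 to 8892. All 20 alternatives gave the co-cultured knockout a positive value over the lone knockout for each of the 10. With the replicate block 9 were called there, and it ended the call of CCL20 between the co-cultured groups (edgeR adjusted p = 0.0676) and gained that of CCL5 (0.0401). The block lowered the count over all genes in co-cultured against lone knockout from 1907 to 1080.

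Directions turned for values near 0. CXCL5 between lone knockout and lone control was -0.47 with GC offsets and -0.47 with GC offsets and the block, and ranged from -0.12 to 0.31 when a library was left out. CXCL8 there was 0.0599 with library size only and ranged from -0.293 to 0.205. Between co-cultured and lone control, CXCL3 ranged from -0.00516 to 0.224 and CCL5 from -0.99 to 0.12. The cause was not tested.

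Counts over all genes in co-cultured against lone knockout were 664 with only the compared groups, 3340 without the filter, 4911 with GC offsets, 4139 with GC offsets and the block and 3347 by DESeq2, and ranged from 536 to 5680 when a library was left out. For the interaction they were 1342 without the filter, 179 with the block, 1402 with GC offsets, 883 with both and 877 by DESeq2, and ranged from 119 to 3623. Of the genes called in co-cultured against lone knockout, 52.5% were higher, and 69.6% with library size only. For the interaction this share was 84.1%, and 58.8% with GC offsets. Library size only moved the median of all genes by 0.16 in lone knockout against lone control and by -0.12 in the interaction. CCL20 could not be fitted in lone knockout against lone control with only those groups, where it did not pass the filter. At 16.1 to 33.5 counts per CPM, CXCL6, CCL5 and CCL20 are limited by counting error.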
